A study of Mus musculus with 104 samples.

Results

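The 39 genes described here encode heat shock proteins, chaperones and their helpers. They were chosen by name, with earlier results of these data known. All 39 had a row among the 45808 gene rows of a table of single-neuron transcript counts. They fall into 9 families by role: 4 HSP70 genes, 3 HSP110 genes, 2 HSP90 genes, 9 HSP40 genes, 3 small heat shock proteins, 2 mitochondrial chaperonin genes, 7 genes of the CCT chaperonin, 8 cochaperones and the regulator Hsf1. The set is named for cytosolic chaperones, but Hspd1 and Hspe1 encode the chaperonin of the mitochondrial matrix.

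Chaperones bind unfolded or newly made proteins and help them fold, come apart from aggregates or pass on to degradation. HSP70 proteins do this in cycles of ATP hydrolysis. HSP40 proteins bring them clients, HSP110 proteins exchange their nucleotide, and HSP90 takes over clients that are partly folded. CCT is a closed ring that folds actin and tubulin, and small heat shock proteins hold unfolded proteins without ATP. Part of the set is constitutive and part is induced by the heat shock factor HSF1, which binds repeated nGAAn units in the promoters of its targets. Lewy pathology consists of inclusions of the aggregated protein α-synuclein, and HSP70 together with HSP40 and HSP110 can take apart α-synuclein fibrils in the test tube.

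The libraries were made by Smart-seq2, a full-length cDNA method, from the content of single mouse substantia nigra neurons drawn into patch pipettes. Titles divide them into 38 experiment and 66 control libraries, and all carry the cell type label dopaminergic neuron. The design text describes brain slices from mice anaesthetised with tribromoethanol, incubated warm and then at room temperature, from which neurons of the pars compacta bearing α-Syn-6H-EGFP inclusions were picked. Which neurons were the controls, and the strain, genotype, age and animal behind each library, are not stated in the labels. With no animal named, each group counts as 1 sample, so no test between groups was made. Intervals of ratios below cover counting error only and are much narrower than the spread between neurons. Intervals of shares of libraries treat each library as a separate draw. They leave out differences between animals and are no comparison of the groups.

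Libraries held 116567 to 3094036 gene counts in the experiment group (median 960027) and 153770 to 2577694 in the control group (median 1039850). Genes with a count had a median of 7354 and 8548, and after each library was thinned to 400000 counts 6916 and 8460. All 7 dopaminergic markers (Th, Slc6a3, Slc18a2, Ddc, Nr4a2, Pitx3, En1) were detected in both groups, and their summed level had a median of 16043 CPM (counts scaled to a common total of gene counts) in experiment libraries and 21260 CPM in control libraries, with only 4 of 38 experiment libraries exceeding the latter. The summed level of 8 immediate early genes, which respond to activity and slicing, had medians of 1897 and 1175 CPM, and 33 of 38 experiment libraries exceeded the control median. Summed oligodendrocyte markers had medians of 852 and 522 CPM, astrocyte markers 67.2 and 26.5, microglia markers 54.7 and 24.6, and GABAergic markers 140 and 51.1. Endothelial markers were at 0 in 36 of 38 and 63 of 66 libraries. The part of these differences in the chaperone values was not tested. Libraries were also split into 2 title sets, since control titles change letter case after number 37. Set 1 holds 21 experiment and 31 control libraries and set 2 holds 17 and 35. The labels do not call these batches, and the split of the experiment libraries rests on the order of the records. The gaps in astrocyte and microglia medians came from set 1, with 85.3 and 19.1 CPM and with 55.2 and 0 CPM in experiment and control libraries. In set 2 they were 40 and 38.9 CPM and 53.6 and 60.7 CPM. With counts summed over libraries, these markers were higher in the experiment group in each set. Ratios were 4.45 in set 1 and 2.62 in set 2 for astrocyte markers, and 4.77 and 1.86 for microglia markers. Oligodendrocyte and GABAergic medians were higher in experiment libraries in both sets. Dopaminergic medians were lower in both, with 16447 and 17951 CPM in set 1 and 15638.5 and 22551 CPM in set 2. Th was the largest part of that sum, with 5277 and 9726 CPM over all libraries of each group. Of the dopaminergic markers only En1 was higher in experiment, with 236 and 194 CPM.

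Promoter sequences are shown for heat-inducible members whose letters match the HSF1 unit, for members with a longer array of units, and for Cct2, the member nearest outside the 1.5-fold threshold. RefSeq start sites on GRCm38.p6 were matched for 32 of the 39 members. Hspa8, Hsp90aa1, Hsp90ab1, Dnajc5, Cryab, Cct4 and Hsf1 had no matched start and were not searched. The 250 bases before each matched start were searched for GAANNTTC and TTCNNGAA, each a pair of inverted units. These 2 motifs read the same on both strands. A longer array of 3 units, GAANNTTCNNGAA or its reverse complement TTCNNGAANNTTC, contains the shorter motifs. The windows of Hspa1a and Hspa1b are given whole, 5′ to 3′ on the minus strand at chr17:34972157-34972406 and chr17:34959239-34959488, with the paired units in capitals.
Hspa1a: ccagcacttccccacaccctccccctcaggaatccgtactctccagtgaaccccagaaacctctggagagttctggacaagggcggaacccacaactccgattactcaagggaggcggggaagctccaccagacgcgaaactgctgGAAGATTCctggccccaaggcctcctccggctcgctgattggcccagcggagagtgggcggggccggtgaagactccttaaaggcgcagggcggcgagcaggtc
Hspa1b: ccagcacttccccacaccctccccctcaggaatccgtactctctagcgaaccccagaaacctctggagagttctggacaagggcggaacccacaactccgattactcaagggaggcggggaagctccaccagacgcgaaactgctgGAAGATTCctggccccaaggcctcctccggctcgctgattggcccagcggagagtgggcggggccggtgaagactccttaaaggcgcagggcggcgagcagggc

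The windows are identical at 247 of 250 bases. Counted from 1 at the 5′ end, with the base of Hspa1a first, the substitutions are C44T, T47C and T249G. The same paired unit stands at the same place in both. The transcripts are alike too: 61.7% of the 75-base windows of the Hspa1a transcript also occur in transcripts of another gene, and 52.7% occur in Hspa1b. The labels state neither the read length nor how reads matching several genes were handled, so the division of counts between Hspa1a (893 and 1017 counts in experiment and control) and Hspa1b (12 and 31) is uncertain.

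Among the other members, Hspb1, Dnajb4 and Cct2 show paired units in windows that touch no annotated exon, and 60 bases of each are given, from chr5:135887795-135887854 on the plus strand and from chr3:152193846-152193905 and chr10:117063385-117063444 on the minus strand. Hspb1 holds 2 of them. For Dnajb4 and Cct2 the match lies before a start inside the annotated gene, and the window of each upstream start held none. Capitals again mark the motif.
Hspb1: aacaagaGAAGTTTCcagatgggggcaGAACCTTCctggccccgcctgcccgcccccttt
Dnajb4: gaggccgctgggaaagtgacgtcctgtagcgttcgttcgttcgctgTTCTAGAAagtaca
Cct2: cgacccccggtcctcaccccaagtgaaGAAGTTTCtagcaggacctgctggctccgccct

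The 3-unit array occurred in the windows of 3 members, Hspe1, Hspd1 and Dnajb6, and 30 bases are given for Hspe1 (chr1:55088052-55088081, plus strand), Dnajb6 (chr5:29735843-29735872, plus strand) and, for comparison, the paired unit of Hsph1 (chr5:149636352-149636381, minus strand). Hspe1 and Hspd1 are transcribed away from each other from 1 stretch of chromosome 1, so their arrays are the same bases read on opposite strands. For Hspd1 the match lies before a start inside the annotated gene, and the window of its upstream start held none. The capitals of Hspe1 hold 4 alternating units, that is 2 overlapping arrays.
Hspe1: cggtccgTTCTAGAACCTTCCGGAAggccc
Dnajb6: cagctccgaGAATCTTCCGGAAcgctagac
Hsph1: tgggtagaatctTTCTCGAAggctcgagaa

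In all, 13 of 32 matched members (40.6%) held a paired unit, against 14.5% of 27025 genes with a window of the same length, and 3 (9.38%) held the 3-unit array, against 0.514%. A gene counted if any of its windows matched. By window, the paired unit was in 32.6% of 46 member windows and 12.8% of all 32851, and the array in 8.7% and 0.466%. The near-identical Hspa1a and Hspa1b count separately here, as do Hspd1 and Hspe1, whose matched bases are the same. Of the heat-inducible genes listed below, 5 of 7 matched genes (71.4%) held a paired unit, Hspa1a and Hspa1b among them. Cct5, Cdc37, Dnaja1 and Stub1 also held a paired unit and are not shown. The windows of Hspa2, Hspa4l and Hspb8 held no match. A match is a description of letters and does not show binding.

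Across the set, levels were close between groups: 31 of the 36 members that were expressed lay within 1.5-fold. A gene counted as expressed with at least 10 CPM over all libraries pooled and a count in 25% or more of either group's libraries, which left out Hspa1b, Hspb1 and Bag3. Members at least 1.5-fold apart by both the pooled CPM (summed counts over summed totals) and the equally weighted mean over libraries were Hspa1a, Cryab and Hspb8, higher in experiment, and Hspa2 and Hspa4l, lower. That is 3 of 36 higher and 2 of 36 lower, where 7.77% of all 9113 expressed genes were higher and 11% lower by the same rule, 18.8% in either direction. The members' shares, 8.33% and 5.56%, are near the background for higher genes and below it for lower ones. The median log2 ratio was 0.07 for the members and -0.03 for all expressed genes. Nearest to the threshold were Hspa2 inside it, with a ratio of 0.643, and Cct2 outside it, with 1.44.

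**Figure D1:**
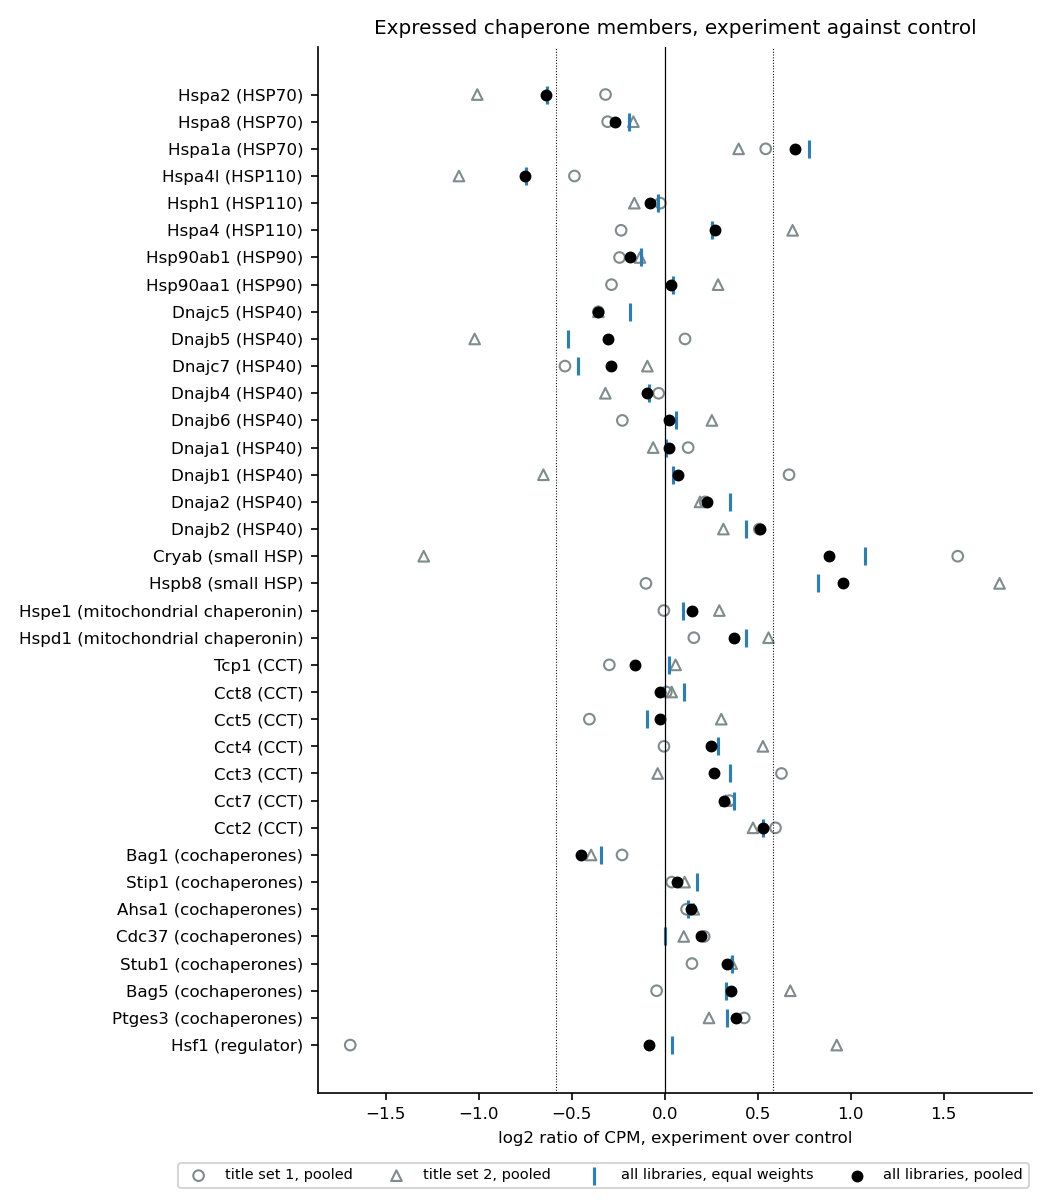
Log2 ratio of CPM, experiment over control, for the 36 expressed members grouped by family, with the pooled ratio (filled circles), the equally weighted ratio (bars) and the pooled ratio within title set 1 (open circles) and title set 2 (triangles). Dotted lines mark 1.5-fold; most members lie between them, and Cryab, Hspb8, Hsf1 and Dnajb1 are among those whose title sets lie on opposite sides of 0.

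The HSP70 family consisted mainly of Hspa8, the constitutive cognate HSP70 that also uncoats clathrin-coated vesicles. Hspa8 ran from 1046 CPM through a median of 3346 to 5375 in experiment libraries and from 748 through 3758 to 5994 in control libraries. The ranges overlapped almost wholly, but 27 of 38 experiment libraries were below the control median. The pooled ratio was 0.832 (95% interval 0.827 to 0.838), with 0.808 in set 1 and 0.890 in set 2. Per kilobase of exon Hspa8 made up 97.4% of the family's pooled level in both groups, and 99.0% and 98.1% in the median experiment and control library. Of the Hspa8 transcript, 41.3% of 75-base windows recur in other genes' transcripts, mostly the copy Gm15459, which had 0 counts in either group.

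Hspa2, an HSP70 best known from germ cells, lay at chr12:76404176-76406938. It ran from 0 through a median of 1.90 to 243 CPM in experiment libraries and from 0 through 38.2 to 246 CPM in control libraries. The highest libraries of the groups were alike, and the difference lay in how many neurons had any count. After thinning, 17 of 34 experiment libraries (50%, exact binomial interval 32.4% to 67.6%) and 48 of 60 control libraries (80%, 67.7% to 89.2%) held a count. Lower detection was general at this level. Expressed genes between 10 and 100 CPM had median shares of 55.9% and 70%, and 84.5% of these genes were lower in experiment. The pooled ratio was 0.643 (0.604 to 0.684), with 0.802 in set 1 and 0.497 in set 2, and 27 of 38 experiment libraries were below the control median. In the 12 experiment and 40 control libraries at or below the median share of ERCC spike-in counts, which falls as a pipette yields more RNA, the log2 ratio was 0.24 and so of the opposite sign.

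Hspa1a, the main stress-induced HSP70 (chr17:34969190-34972156), was low in most neurons of both groups. Experiment libraries ran from 0 through a median of 1.78 to 95.4 CPM and control libraries from 0 through 3.23 to 142 CPM. The control median was the higher one, and 19 of 38 experiment libraries were above it. The pooled levels were 22.2 and 13.7 CPM, a ratio of 1.63 (1.48 to 1.78), with 1.46 in set 1 and 1.32 in set 2, under 1.5-fold in each. Experiment library 2 alone held 24.7% of the experiment counts. Without experiment libraries 2, 3 and 4, whose Hspa1a levels were 71.4, 68.6 and 88.8 CPM, the log2 ratio was 0.11 in place of 0.70, and among libraries with at least the median number of genes detected it was -0.62. After thinning, a count was found in 16 of 34 experiment and 33 of 60 control libraries. Its near-copy Hspa1b was found in 5 experiment libraries and in 9 controls.

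The HSP110 proteins are nucleotide exchange factors of HSP70. Hspa4l (chr3:40744495-40796103) was the member with the lowest ratio among those expressed. It ran from 0 through a median of 171 to 864 CPM in experiment libraries and from 0 through 319 to 684 CPM in control libraries. In 32 of 38 experiment libraries it was below the control median, although the single highest library was an experiment one. The pooled levels of 198 and 334 CPM gave a ratio of 0.593 (0.578 to 0.608), and the equally weighted ratio was 0.597. Both title sets had it lower, with 0.714 in set 1 and 0.464 in set 2, and its sign was the same in all 13 alternative settings tried, whose log2 ratios ran from -1.45 to -0.25. In set 1 and at low ERCC share (-0.25) the difference was under 1.5-fold. Below the control median in at least 25 experiment libraries were 4 of 36 members (Hspa2, Hspa8, Hspa4l and Dnajc5) and 21.6% of all expressed genes, a cut-off chosen after the values were seen. This background is not matched for level, since most expressed genes lie below 100 CPM.

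Hsph1, the heat-inducible HSP110, ran from 82.5 through a median of 380 to 675 CPM in experiment libraries and from 85.9 through 404 to 771 in control libraries. These distributions lay on each other, and the pooled ratio was 0.945. Hspa4, the third gene of the family, had pooled levels of 108 and 89.4 CPM and ratios of 0.850 in set 1 and 1.61 in set 2, the latter 1.07 without experiment library 46. The family's summed level had medians of 684 and 820 CPM, and 10 of 38 experiment libraries exceeded the latter.

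**Figure D2:**
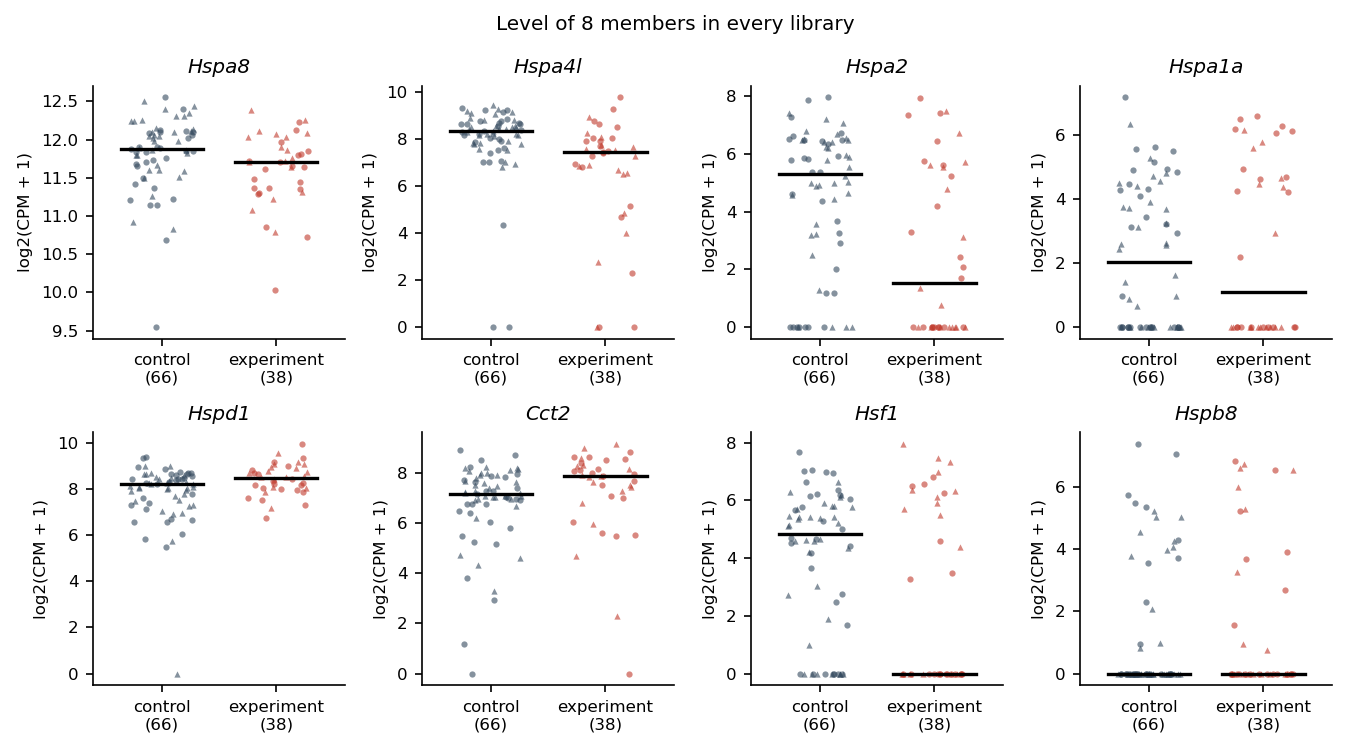
Level of 8 members as log2(CPM + 1), one point per library (circles, title set 1; triangles, title set 2), with the median as a line, in 66 control and 38 experiment libraries. Hspa4l and Hspa2 have lower experiment medians with overlapping ranges, Cct2 and Hspd1 higher ones (Hspd1 in title set 2 only), and Hspa1a, Hspb8 and Hsf1 have many libraries at 0.

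Both HSP90 genes had counts in every library. Hsp90ab1, the constitutive form, ran from 1231 through a median of 2476 to 4000 CPM in experiment libraries and from 970 through 2581 to 4301 in control libraries, a pooled ratio of 0.880 (0.873 to 0.887). Hsp90aa1, the inducible form, ran from 495 through 1382 to 3183 CPM and from 342 through 1342 to 2730 CPM, a ratio of 1.02 (1.01 to 1.03). Per kilobase, Hsp90ab1 was 68% of the pair in experiment and 71.2% in control libraries. Hsp90aa1 ratios were 0.820 in set 1 and 1.22 in set 2, on opposite sides of 1. Of its transcript, 53.1% of windows recur elsewhere, mainly in Gm12346, which had 7.05 and 7.06 CPM.

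None of the 9 HSP40 genes, the J-domain proteins that deliver clients to HSP70, was 1.5-fold apart. Dnaja1, the most abundant, ran from 66.4 through a median of 491 to 1231 CPM in experiment libraries and from 68 through 514 to 1074 CPM in control libraries, a ratio of 1.02. Dnajc5, the cysteine string protein of synaptic vesicles, ran from 51 through 305 to 1490 CPM and from 72.7 through 375 to 746 CPM. The ratio was 0.781 in each set, and 25 of 38 experiment libraries lay under the control median. Dnajb1, the inducible HSP40 that acts on α-synuclein fibrils with HSP70, had pooled levels of 155 and 147 CPM. Its ratio was 1.59 in set 1 and 0.636 in set 2, so the pooled 1.05 joined opposite values. Dnajb2, a neuronal J protein that passes clients to the proteasome, had 103 and 72.3 CPM and a ratio of 1.42 (1.37 to 1.48), with 1.42 in set 1 and 1.24 in set 2. The set 1 value rested on experiment library 2, without which it was 0.890. Dnaja2 had a ratio of 1.17, with 25 experiment libraries over the control median. Dnajb4 (0.935), Dnajb5 (0.810), Dnajb6 (1.01) and Dnajc7 (0.817) made up the rest.

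Each small heat shock protein had no count in most libraries, and this family varied most. Cryab encodes αB-crystallin (chr9:50751325-50756636), which is abundant in oligodendrocytes as well as in stressed cells. It ran from 0 through a median of 0 to 493 CPM in experiment libraries and from 0 through 0 to 540 CPM in control libraries, with a count in 16 of 38 and 27 of 66. The pooled levels were 59.7 and 32.4 CPM, a ratio of 1.84 (1.74 to 1.95). Title set 1 had a ratio of 2.98 and title set 2 one of 0.407. The set 2 value was 0.779 without control library 65 and 0.247 without experiment library 52. Thinned libraries held a count in 15 of 34 (44.1%) and 25 of 60 (41.7%), which does not separate the groups.

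Libraries high in Cryab were also high in oligodendrocyte markers. The highest was control library 65, with 540 CPM of Cryab and 8173 CPM of the summed 6 markers, followed by experiment library 3 with 493 and 5809, experiment library 34 with 424 and 8575 and experiment library 4 with 333 and 3938. Each is well above the marker medians of 852 and 522 CPM. Over libraries, Pearson's r between Cryab and the summed markers was 0.58 and 0.61 in experiment sets 1 and 2 (n = 21 and 17) and 0.40 and 0.43 in control sets 1 and 2 (n = 31 and 35). The points share depth and library, and r is given as a description. Without experiment libraries 2, 3 and 4 the log2 ratio was -0.17 in place of 0.88. Without the 10% of libraries highest in glial markers it was 0.99 by pooled CPM, but the call by both weightings was lost.

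**Figure D3:**
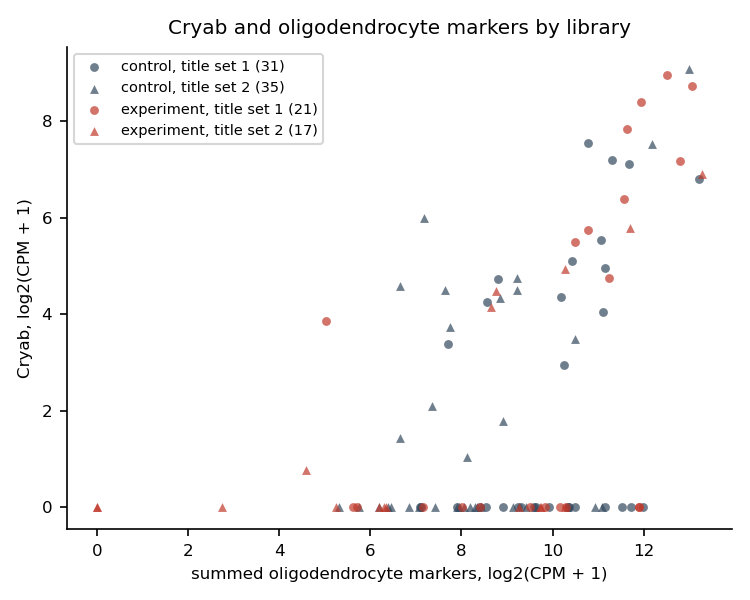
Cryab against the summed level of 6 oligodendrocyte markers, both as log2(CPM + 1), one point per library, by group and title set. Libraries with much Cryab lie to the right, among those high in oligodendrocyte markers, in control as in experiment, while many libraries with these markers have no Cryab count.

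Hspb8 (chr5:116408491-116422864), which works with Bag3 in chaperone-assisted autophagy, ran from 0 through a median of 0 to 114 CPM in experiment libraries and from 0 through 0 to 168 CPM in control libraries. The highest 2 libraries were controls. Pooled levels of 16.6 and 8.53 CPM gave a ratio of 1.94 (1.74 to 2.17), with 0.932 in set 1 and 3.48 in set 2. The set 1 value was 1.88 without control library 4, 0.543 without experiment library 27 and 0.590 without experiment library 30. After thinning, 10 of 34 and 18 of 60 libraries held a count, so the higher pooled level came with a near-equal share of neurons, 29.4% and 30%. Hspb1, HSP25 of the mouse, was below the expression filter. It had 39 counts in 4 experiment libraries, 56.4% of them in library 26, and 551 counts in 20 control libraries, a ratio of 0.131 (0.0921 to 0.181), or 0.0588 without library 26. In set 2 no experiment library had a count of Hspb1, which allows up to 3 counts, against 437 counts in 13 control libraries.

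Hspd1 and Hspe1, the ring and lid of the mitochondrial chaperonin, start from the stretch of chromosome 1 shown above. Hspd1 ran from 104 through a median of 352 to 980 CPM in experiment libraries and from 0 through 293 to 660 CPM in control libraries, a ratio of 1.29 (1.27 to 1.32) with 1.11 in set 1 and 1.47 in set 2. Hspe1 ran from 33.6 through 177 to 457 CPM and from 23.3 through 175 to 508 CPM, a ratio of 1.11. The pair's summed level had medians of 555 and 458 CPM, and 26 of 38 experiment libraries exceeded the latter. The higher median came from set 2 (601 and 436 CPM), while in set 1 the experiment median was the lower one (480 and 495 CPM). The same held for the Hspd1 medians, 407 and 268 CPM in set 2 and 291 and 337 CPM in set 1. Over libraries the levels of these neighbours had a Pearson's r of 0.33 and 0.11 in experiment sets 1 and 2 and 0.022 and 0.27 in the control sets.

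All 7 CCT subunits among the members lay within 1.5-fold, and 4 were higher by both weightings. Cct7 ran from 0 through a median of 677 to 1712 CPM in experiment libraries and from 49.9 through 503 to 1164 CPM in control libraries. The control median was exceeded by 27 of 38 experiment libraries, and ratios were 1.27 and 1.26 in the title sets and 1.25 (1.23 to 1.27) overall. Cct8 ran from 20.8 through 594 to 1104 CPM and from 9.61 through 469 to 1245 CPM. Its experiment median was the higher one but its pooled ratio was 0.981. Cct2 had medians of 232 and 143 CPM, 27 experiment libraries over the latter, and a ratio of 1.44 (1.40 to 1.48), 1.51 in set 1 and 1.39 in set 2. Ratios were 1.20 for Cct3, 1.19 for Cct4, 0.984 for Cct5 and 0.894 for Tcp1. The assembled ring holds equal numbers of its subunits, yet per kilobase the highest, Cct8, was 3.72 times the lowest, Cct3, in experiment and 4.55 times in control libraries by merged exon length. With the length of 1 transcript per gene it was 2.81 times the lowest, then Tcp1, in experiment and 3.07 times Cct3 in control libraries. The summed level of these 7 subunits, without Cct6a, had medians of 2618 and 2380 CPM, with 25 of 38 experiment libraries over the latter.

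**Figure D4:**
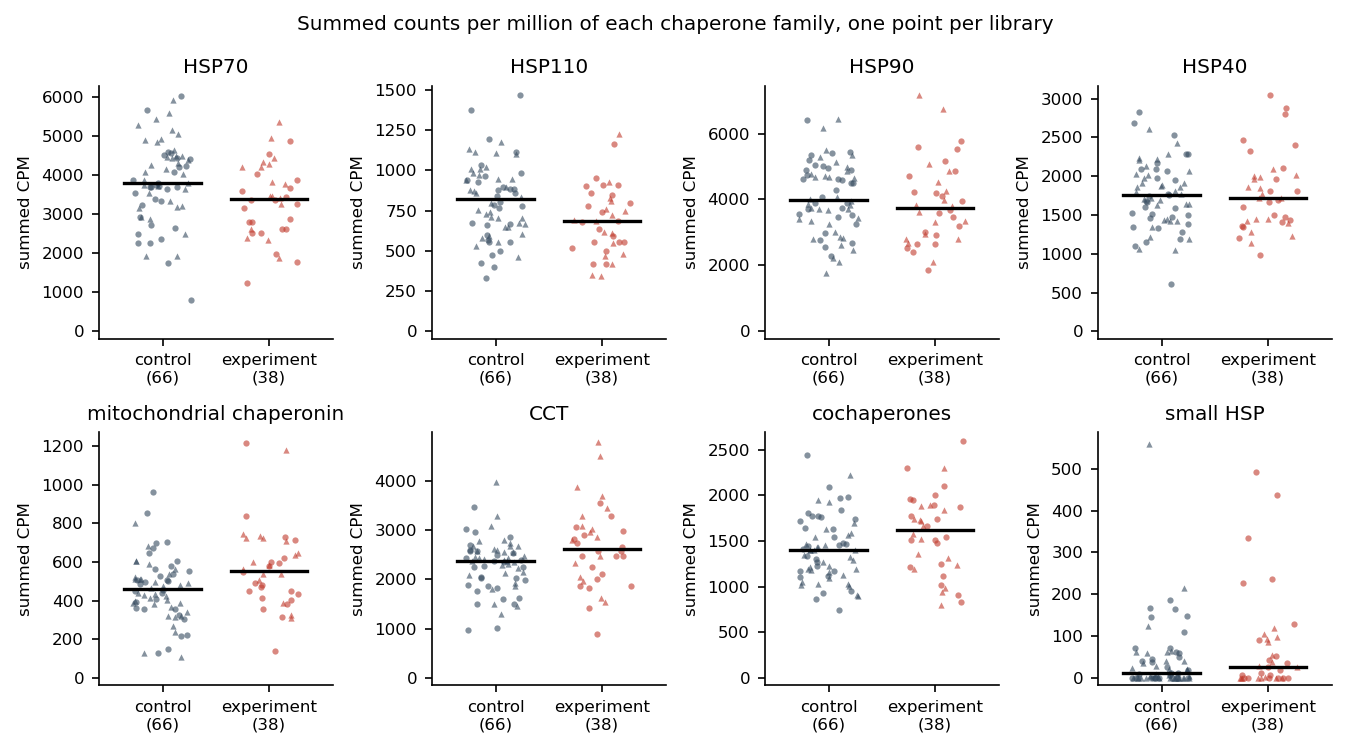
Summed CPM of 8 families, one point per library (circles, title set 1; triangles, title set 2), with the median as a line, in 66 control and 38 experiment libraries. Experiment medians are lower for HSP70 and HSP110 and close for HSP40. They are higher for CCT, cochaperones and the mitochondrial chaperonin (the last in title set 2 only). For HSP90 the experiment median is lower in title set 1 (3672 against 4486 CPM) and close in title set 2 (3788 against 3845 CPM). Ranges overlap in each family.

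Among the cochaperones, Ptges3 (p23, which stabilises the closed form of HSP90) ran from 111 through a median of 360 to 924 CPM in experiment libraries and from 72.6 through 282 to 696 CPM in control libraries. Its ratio was 1.30 (1.28 to 1.33), with 1.35 and 1.18 in the title sets, and it exceeded the control median in 25 of 38. Stip1, which links HSP70 to HSP90, ran from 21 through 320 to 904 CPM and from 69 through 293 to 1331 CPM, a ratio of 1.05. Stub1, the ubiquitin ligase CHIP, had pooled levels of 184 and 146 CPM (ratio 1.26), with 25 experiment libraries over the control median, though 28.6% of its transcript windows overlap the neighbouring gene Jmjd8. Cdc37 (1.15) and Ahsa1 (1.11) are cochaperones of HSP90. Bag1, a nucleotide exchange factor, was at 148 and 202 CPM with a ratio of 0.731, 0.853 in set 1 and 0.760 in set 2. Bag5, of the same family, had a ratio of 1.28, with 0.970 and 1.6 in the sets.

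Bag3, the partner of Hspb8, was below the expression filter, and was found in 6 of 38 experiment libraries and in 10 of 66 controls. Its pooled level was 14.6 against 3.79 CPM, a ratio of 3.85 (3.34 to 4.46), with 3.86 in set 1 and 0.936 in set 2. Experiment library 2 held 60.6% of the experiment counts (115 CPM) and library 3 the highest level (372 CPM), and without libraries 2, 3 and 4 the log2 ratio was -1.09 in place of 1.95. Experiment libraries 2, 3 and 4 had GABAergic markers between 807 and 1394 CPM and dopaminergic markers between 5680 and 9502 CPM. Of these, library 4 had 0 CPM of Bag3. Without control library 4, which held 44% of the control counts, the ratio was 6.76.

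At least 25 of 38 experiment libraries were above the control median for 6 of 36 members, Dnaja2, Cct2, Cct7, Cct8, Stub1 and Ptges3, and for 3.95% of all expressed genes. The cut-off of 25 was chosen after the values were seen, so the count is a description. The background is not matched for level. Of the 9113 expressed genes 7027 lie between 10 and 100 CPM, where detection was mostly lower in experiment libraries, while the 6 members lie between 159 and 581 CPM pooled. The shares are therefore not like for like. None of the 6 is on the heat-inducible list that follows.

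The heat-inducible genes listed by role (Hspa1a, Hspa1b, Hsph1, Dnajb1, Hspb1, Bag3, Dnajb4 and Hsp90aa1) did not stand higher in their summed level. Cryab and Hspb8, which were at least 1.5-fold higher by both weightings, are not on this list. The list was chosen with earlier results of these data known. The summed level of the listed genes had medians of 2069 CPM in experiment and 2028 CPM in control libraries. For this sum 21 of 38 experiment libraries were above the control median. The pooled ratio was 1.01, which joined 0.916 in set 1 and 1.08 in set 2. Hsp90aa1, at 1452 and 1421 CPM pooled, makes up much of this sum, so the sum mostly follows that gene. For the 10 pairs among the 5 that were expressed, which leaves out Bag3, median r of log2(CPM + 1) was 0.0736 and 0.144 in experiment sets 1 and 2 and 0.0691 and 0.0862 in the control sets, beside 0.0802, 0.0637, 0.0684 and 0.0645 over pairs of all expressed genes. Experiment set 2 was farthest above its background, with single pairs from -0.42 to 0.75 over 17 libraries. Experiment library 2 had the highest experiment levels of Dnajb1 (597 CPM) and Dnajb4 (349 CPM), with Hsph1 at 486, Bag3 at 115 and Hspa1a at 71.4 CPM. Of all pairs of members, Hspd1 with Cct8 (r from 0.41 to 0.66 over the 4 group and set combinations) and Hsp90aa1 with Hsp90ab1 (0.35 to 0.65) were highest in their lowest value.

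Hsf1, the regulator, ran from 0 through a median of 0 to 248 CPM in experiment libraries and from 0 through 28 to 204 CPM in control libraries. Pooled levels were nearly equal, 39.6 and 42 CPM with a ratio of 0.943, which joined 0.310 in set 1 and 1.90 in set 2. After thinning, a count was found in 17 of 34 experiment libraries (50%, 32.4% to 67.6%) and 47 of 60 control libraries (78.3%, 65.8% to 87.9%). Libraries with a count had a mean level of 59 CPM (7 experiment) and 61.9 CPM (24 control) in set 1, and of 101 CPM (11 experiment) and 39.2 CPM (28 control) in set 2. Lower detection was general: for the 7027 expressed genes between 10 and 100 CPM the median share of thinned libraries with a count was 55.9% in experiment and 70% in control, and 84.5% of them were lower in experiment. A gene with no count in a thinned library can still be expressed below the limit of 3 counts in 400000.

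**Figure D5:**
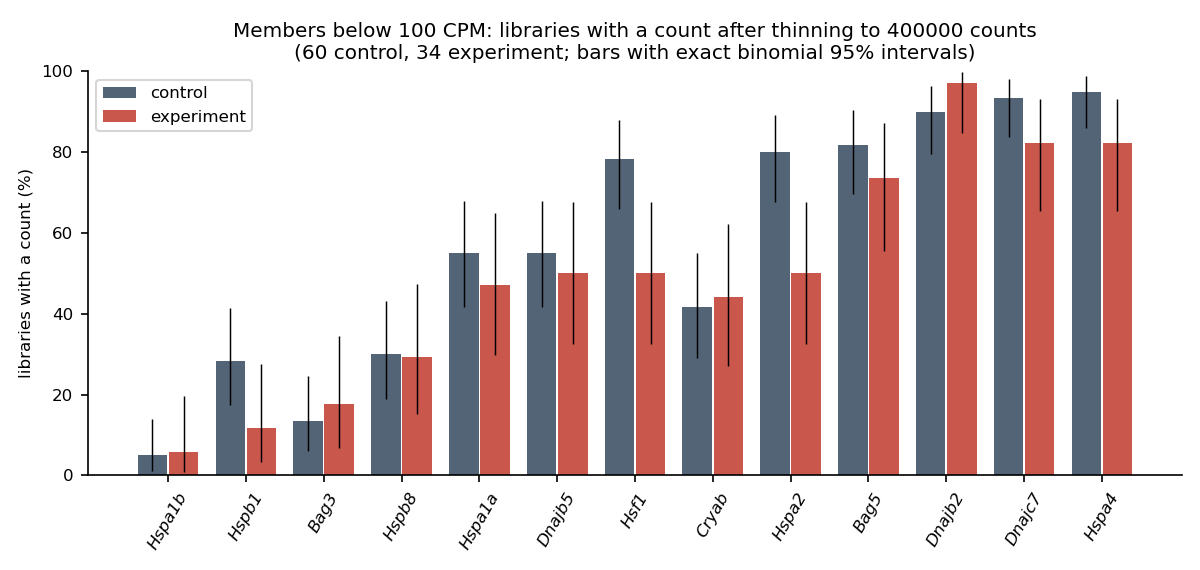
Percentage of libraries with a count for the 13 members below 100 CPM, after thinning to 400000 counts, in 60 control and 34 experiment libraries. The exact binomial 95% intervals treat each library as a separate draw. They leave out differences between animals and are no comparison of the groups. Hsf1 and Hspa2 have the widest gaps, 78.3% against 50% and 80% against 50%, and Hspb8, Cryab and Hspa1b have almost none.

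Beyond the members, 76 further chaperone genes were listed by role, and 58 of them were expressed. Of these, 3 were at least 1.5-fold higher by both weightings and 4 lower, 5.17% and 6.90%, again not above 7.77% and 11% of all expressed genes, and their median log2 ratio was 0.01. Dnajc2, a ribosome-bound J protein, had pooled levels of 93.4 and 54.7 CPM (ratio 1.71, with 1.49 in set 1 and 1.93 in set 2). The other higher ones rested on set 2. Nudcd2 (24.8 and 14.8 CPM, 1.67) had ratios of 0.714 in set 1 and 3.39 in set 2. Dnajc19, a J protein of the mitochondrial inner membrane (65.3 and 42.5 CPM, 1.54), had 1.05 and 2.06. Hspb6, a small heat shock protein, had 7.54 and 16.9 CPM (0.448, with 0.224 and 0.729 in the sets), and experiment library 55 held 36% of its experiment counts. Pdcl, which assists CCT, had 27.7 and 58.3 CPM (0.475, with 0.546 and 0.448). Bag4 (0.547) was lower in each set (0.444 and 0.625). Dnajc14 (0.639) was lower in set 1 only, with 0.159 there and 1.33 in set 2. Cct6a, the CCT subunit absent from the member list, had a ratio of 1.16, with 0.896 in set 1 and 1.44 in set 2.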

How the data were processed

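RNA of 104 single neurons was amplified by Smart-seq2, per the labels' protocols. The authors deposited whole-number counts per gene symbol, with 45808 gene rows and 92 ERCC spike-in rows, which were kept out of library totals. STAR 2.5.3a, featureCounts 1.5.3 and the build mm10 are named, per the submitters' processing notes, without role or order, and neither labels nor headers give the annotation, the strand setting or the treatment of multiply matching reads. The members and gene lists were chosen with earlier results of these data known.

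Counts were summed per group and divided by summed gene counts (pooled CPM), and the ratio carries an exact binomial 95% interval. The mean of library CPM weights libraries equally. Reads have no molecular identifiers, so intervals of ratios and the floor of 3 counts cover counting error only. Intervals of shares of thinned libraries with a count are exact binomial over libraries. Each group counted as 1 sample. Libraries under 400000 counts (4 experiment, 6 control) were left out of thinned values. Libraries needed 50000 gene counts and 1000 genes, and 0 failed. None of the 5356 pairs of libraries was identical. Members were all accounted for by family, and lowest, median and highest library values were given for members at least 1.5-fold apart by both weightings and for the 2 most abundant per family. From the list of other chaperones, at most 8 genes at least 1.5-fold apart were named. Transcript windows of 75 bases, a length chosen here, were compared across GENCODE M21 transcripts. Exon lengths and gene positions came from GENCODE M21 and promoters from RefSeq (GRCm38.p6). Python 3.11.15, R 4.3.3, edgeR 4.0.16 (TMM factors only) and DESeq2 1.42.0 (size factors only) were used, and the ratio calculation was tested on simulated data.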

Additional observations from a re-analysis of the deposited data

How the results depend on the processing

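Of the members at least 1.5-fold apart, Hspa4l kept its sign in each of the 13 alternatives run. Hspa1a took the opposite sign by the ratio of medians (-0.86) and among libraries with at least the median number of genes detected (-0.62), Hspb8 in title set 1 (-0.10), Cryab in title set 2 (-1.30) and without experiment libraries 2, 3 and 4 (-0.17, a setting chosen after seeing the data), and Hspa2 among libraries at or below the median ERCC share (0.24). The number of members higher, 3, was 1 by mean log2(CPM + 1), by the ratio of medians, without the libraries highest in glial markers, among libraries with more genes detected and without experiment libraries 2, 3 and 4, where 4.17%, 7.67%, 7.82%, 10.9% and 7.71% of all measured genes were higher, and 0 at 2-fold (2.35%). In the last 3 of those settings with 1 member it was Hspb8. The number lower, 2, was 6 by mean log2(CPM + 1) (36.4% of all genes), 1 with TMM (12.3%) and with DESeq2 size factors (10.5%), namely Hspa4l, 1 in title set 1 (Hsf1, 16.6%), 5 in title set 2 (17.5%), and 0 at 2-fold (3.8%). Of the other chaperones, 7 of 58 were apart, and this was 21 by mean log2(CPM + 1), 13 of 52 by medians (34.1% of all genes lower), 11 without the highest library (5.71% higher, 16.5% lower), 17 with more genes detected (10.9% and 20%), 12 of 71 with no expression filter (26.5% and 22.9%) and 0 at 2-fold. The median log2 ratio of members, 0.07, was -0.0326 by mean log2(CPM + 1), where all expressed genes had -0.38, 0.0035 with TMM (all genes -0.10), -0.0042 in title set 1, 0.13 in title set 2, 0.01 without the highest library (all genes -0.14), 0.16 at low ERCC share, -0.094 with more genes detected and 0.0222 without experiment libraries 2, 3 and 4. The median r of the heat-inducible genes was -0.019 in thinned control set 1, and with TMM 0.12 and 0.18 in experiment sets 1 and 2 and 0.16 in control set 2 (both settings chosen after seeing the data). With each single library left out, also chosen after seeing the data, 8 values of 5 expressed members (Hspa4, Dnajb2, Dnajb5, Cryab and Hspb8) moved by over 1.5 times, all within a title set. The log2 ratio took the opposite sign for Dnajb2 in set 1 without experiment library 2 (-0.17) and for Hspb8 in set 1 without control library 4 (0.91). The cause of these shifts was not tested. No paired analysis was possible because the labels tie no title number to an animal. Depth limits genes under about 10 CPM, where a library holds few counts.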
